A study of Saccharomyces cerevisiae with 12 samples.

Results

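Expression was compared between budding yeast that transcribed the forkhead factor gene HCM1 from a tetracycline-regulated promoter and the same strain after 10 h of doxycycline, which represses that promoter. The comparison was made on 2 of the 12 arrays of the series, and its members were the open reading frames (ORFs) with a value on both of these arrays, 4307 of the 6174 in the table. Array 1 held values for 4341 ORFs and array 2 for 5077. Each value is the log2 ratio of cells without over cells with doxycycline, so that 1 is a doubling in cells without doxycycline and 0 is no difference.

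Hcm1 is a forkhead transcription factor that acts in S phase, the stage of DNA replication. In budding yeast it is known for activating genes of chromosome segregation, among them kinetochore and spindle genes that are used later in the cycle, and genes of cell cycle regulators such as NDD1, FKH1, FKH2 and WHI5. It has also been linked to respiration, oxidative stress resistance and the adaptation of cells to scarce nutrients.

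The strain studied here was MJRC07 (tetHCM1HA), GRB2405 with tetO7-HCM1-3HA::kanMX4, called the tet strain below. Its parent GRB2405 (HCM1HA), the tagged strain, was CML128 with HCM1-3HA::natMX4 under the gene's own promoter. The wild type was CML128, of mating type MATa, with the alleles ura3-52, his4, leu2-3,112 and trp1. MJRC05 was CML128 with hcm1::natMX4, the deletion strain. All groups therefore carried the CML128 markers, and both sides of the tet strain comparison carried the tagged, tet-driven HCM1. The labels do not say whether a strain was 1 transformant or several. Cells grew exponentially in the rich medium YPD at 30 °C to an A600 of 0.5, and cDNA from total RNA was hybridised with the dyes swapped between array 1 and array 2. A swap is stated for each RNA sample, so the 2 arrays were counted as 1 RNA pair. The labels do not settle whether both arrays used the same extracts, so the SD given after a ratio (n = 2 arrays) may be technical only.

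The series also compared the tet strain with the tagged strain, both without doxycycline, and the deletion strain with the wild type. Its 3 control comparisons were the tagged strain with over without doxycycline for 10 h, the same for 4 h, and the tagged strain over the wild type. The comparison of the tet strain with the tagged strain shares the untreated tet cells with the one described here, so its ratios are set beside the others as values only. The number of arrays limits the precision, since neither intensities nor counts per spot were used here. In bulk RNA, fewer cells of a kind and less RNA per cell cannot be told apart.

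The ratios of the 2 arrays correlated at r = 0.76 (Spearman 0.70) across 4307 ORFs, which are not independent replicates, and 3229 ORFs (75%) had the same sign on both. The SD between the arrays had a median of 0.20 and a 95th percentile of 0.60. The arrays of the other comparisons correlated between 0.53 and 0.71, except the tagged strain over the wild type, whose 2 columns mirrored each other at -0.999 and were used as 1. The alpha mating-type gene SAG1, an agglutinin that MATa cells should not use, lay at -0.07 and -0.17. Of the MATa genes, the pheromone receptor gene STE2 lay at -1.07 and -0.53 and the pheromone exporter gene STE6 at -1.03 and -0.83. They were the 2 lowest of 4 MATa genes measured, whose median was -0.44, and 1 of the 4 averaged above 0, at 0.20. These are differences between treated and untreated cells, and ratios give no level against which the mating type could be checked.

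HCM1, on chromosome III, was the gene with the highest ratio. Its log2 ratio was 5.79 on array 1 and 5.51 on array 2, a mean of 5.65 ± 0.20 (SD, n = 2 arrays) or 50.2-fold more in cells without doxycycline. Both arrays lay more than 1 above the next gene, HSP26. The test set each ratio against the scatter of the 3 control comparisons (limma, 2480 ORFs with at least 2 control values), and HCM1 alone passed it, with a standard error of 0.53 and an adjusted p of 0.0445. That is 1 ORF higher (0.0403% of those tested) and 0 lower, with 233 ORFs at an unadjusted p under 0.05. The scatter is the distance of the controls from 0, so responses to doxycycline in the tagged strain widen it. With the 10 h comparison left out of the residual, 95 of 1961 ORFs passed, and HCM1 could not be tested. The call for HCM1 rested on array 1: the adjusted p was 0.0767 without array 1 and 0.0368 without array 2. With comparisons as units it lay between 0.00326, with arrays brought to a common spread, and 0.197, with the median of ORFs of like length and chromosome removed. With single arrays as units, the tagged strain over the wild type again as 1 column, it was 2.02e-05, or 1.75e-04 with the replicate block.

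HCM1 was also measured in the other comparisons. The tet strain over the tagged strain, both without doxycycline, gave it ratios of 5.31 and 5.02, a mean of 5.17. Untreated tet cells thus had far more HCM1 RNA than cells with the gene's own promoter. That mean is close to the 5.65 over treated tet cells, so the treated cells cannot be taken as cells without HCM1. Treated tet cells and the tagged strain were not compared directly. In the deletion strain over the wild type the mean ratio of HCM1 was -3.36. In the tagged strain, where doxycycline has no tet promoter to act on, 10 h with over without doxycycline gave HCM1 ratios of 1.37 and 0.68. The response to doxycycline therefore went opposite ways in the 2 strains, and the difference between them was 6.67 (limma, adjusted p = 1.28e-15). For HCM1 the residual of this test was a single control value, 0.27 in the tagged strain over the wild type, moderated by the spread over all tested ORFs. HCM1 had no value on both 4 h arrays.

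**Figure D1:**
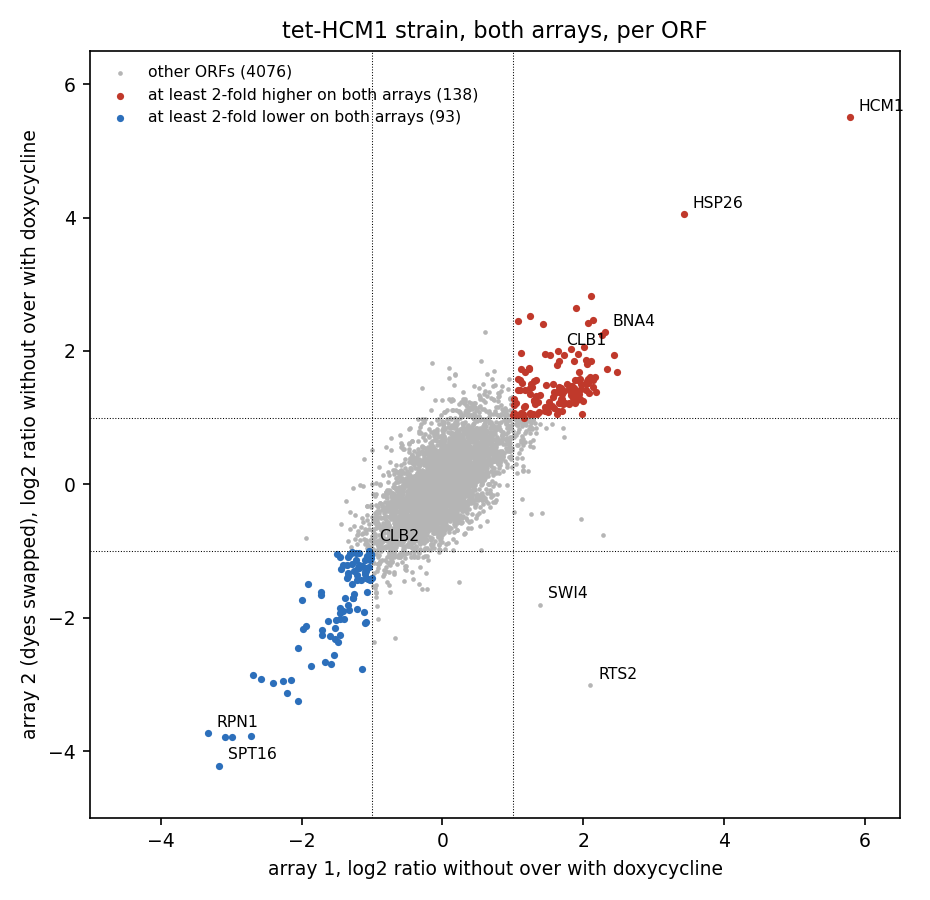
Log2 ratios of the tet strain without over with 10 h doxycycline on array 1 (horizontal) and array 2 (vertical) for the 4307 ORFs with both values, with the ORFs at least 2-fold higher or lower on both arrays coloured. HCM1 stands apart at 5.79 and 5.51, and most other ORFs lie within 1 of 0 on both arrays.

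Because the test left only HCM1, other genes are described by a count with no error model: at least 2-fold, that is 1 on the log2 scale, in the same direction on both arrays. By this rule 138 of 4307 ORFs (3.2%) were higher and 93 (2.16%) were lower in cells without doxycycline. These shares are the background for the counts given for gene groups below. The smaller of the 2 array values ranked the genes, and the highest after HCM1 were HSP26, BNA4, YKR075C, SSA4, PUT1, GDH2, WSC4 and PRY1. The lowest were RPN1, SPT16, BPT1, MIS1, TCB3, NUP188 and KGD1.

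**Figure D2:**
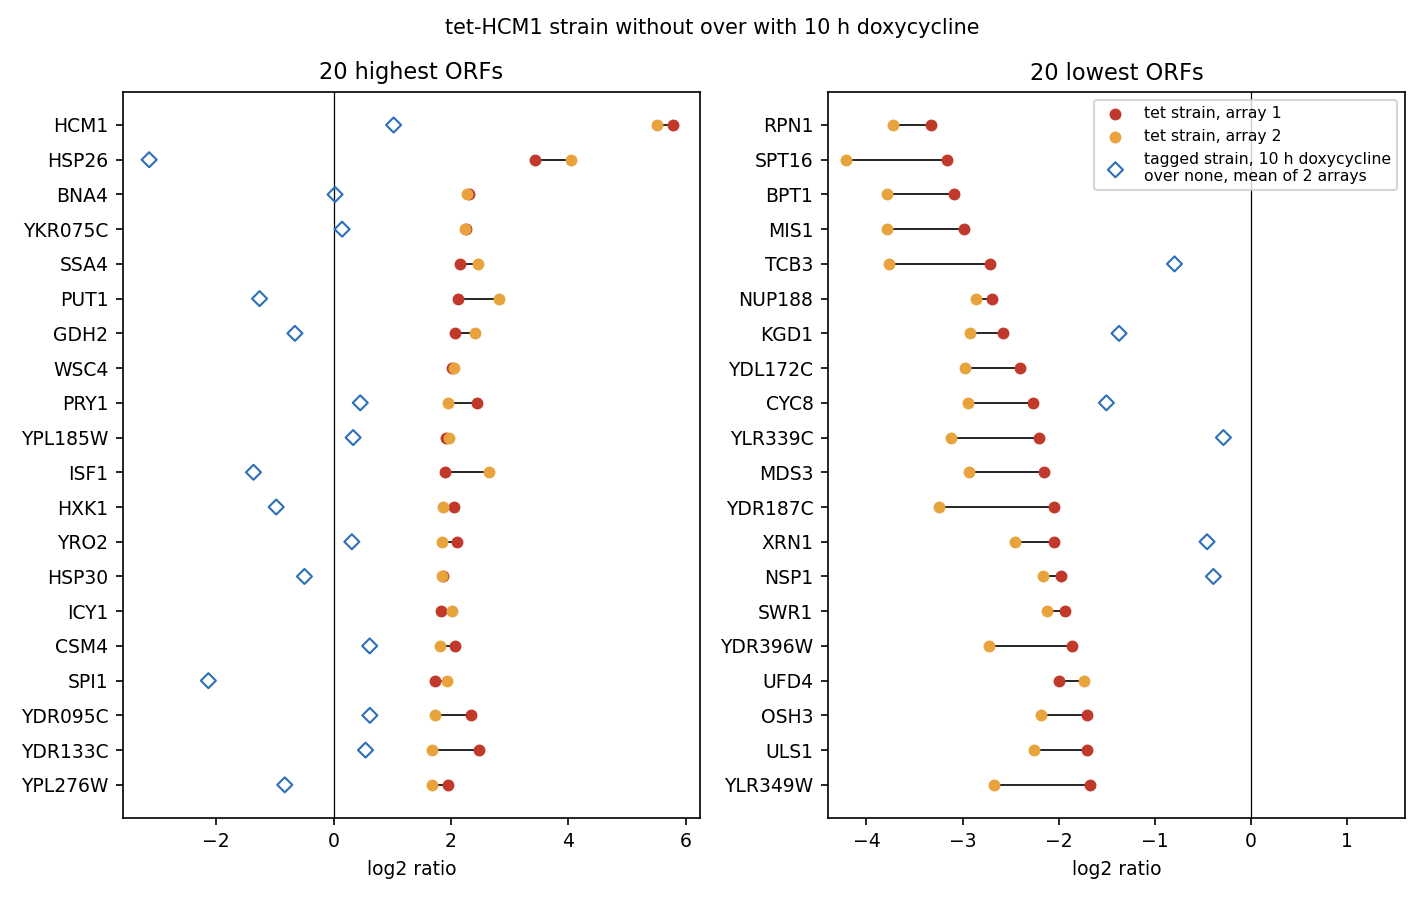
The 20 highest (left) and 20 lowest (right) ORFs of the tet strain, ranked by the smaller of the 2 array values: filled points are the log2 ratios without over with doxycycline on each array, and open diamonds the mean log2 ratio of the tagged strain with over without 10 h doxycycline. HSP26, SPI1, PUT1 and ISF1 among the highest and KGD1 and CYC8 among the lowest had diamonds below -1. Most of the lowest ORFs had no value on both 10 h arrays of the tagged strain.

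Ratios also followed the length and chromosome of the ORF, and this touches several groups below. The 415 shortest ORFs, with coding lengths of 117 to 537 bases, had a median ratio of 0.23, and 12.8% of them were 2-fold higher. The 414 longest, of 2820 to 14733 bases, had a median of -0.21, and 5.56% of them were 2-fold lower. Across 4140 ORFs with a known length, Spearman's correlation of ratio and coding length was -0.24, at -0.34 on array 1 and -0.11 on array 2.

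Some sets of like length stood together on certain chromosomes, which were picked after their values were seen. Of the 59 ORFs of 381 to 480 bases on chromosomes IV, XV and XVI, 42 (71.2%) were 2-fold higher, with a median ratio of 1.49. Among the 111 ORFs of that length on all other chromosomes, 6 (5.41%) were 2-fold higher, and the median was 0.13. ORFs on chromosomes IV, XV and XVI that the gene table does not list held 21 of 53 at 2-fold higher (39.6%), and those of the other chromosomes 1 of 114. Unlisted ORFs were also often 2-fold lower, in 7 of the 53 (13.2%) and 15 of the 114 (13.2%), against 2.16% over all ORFs. The short and unlisted ORFs of chromosomes IV, XV and XVI were together 112 of the 4307 ORFs. They held 63 of the 138 higher ORFs and 7 of the 93 lower ones.

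Other bands of length had smaller shifts. ORFs of 2082 to 2289 bases had a median of 0.56 on chromosomes X to XIII (69 ORFs) and of -0.44 on the others (88 ORFs). ORFs of 2880 to 3249 bases on chromosomes II to IX were 2-fold lower in 11 of 52 cases (21.2%), against 0 of 55 on the others. The tet strain over the tagged strain had a median of 1.09 in the short set of chromosomes IV, XV and XVI, and the deletion strain over the wild type 0.27. The part of length and chromosome in the ratios of single genes was not tested. For most genes named below that lie in such a set, the median of the 30 nearest neighbours in length is also given. These neighbours come from the same group of chromosomes, and the value is called the neighbour median.

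**Figure D3:**
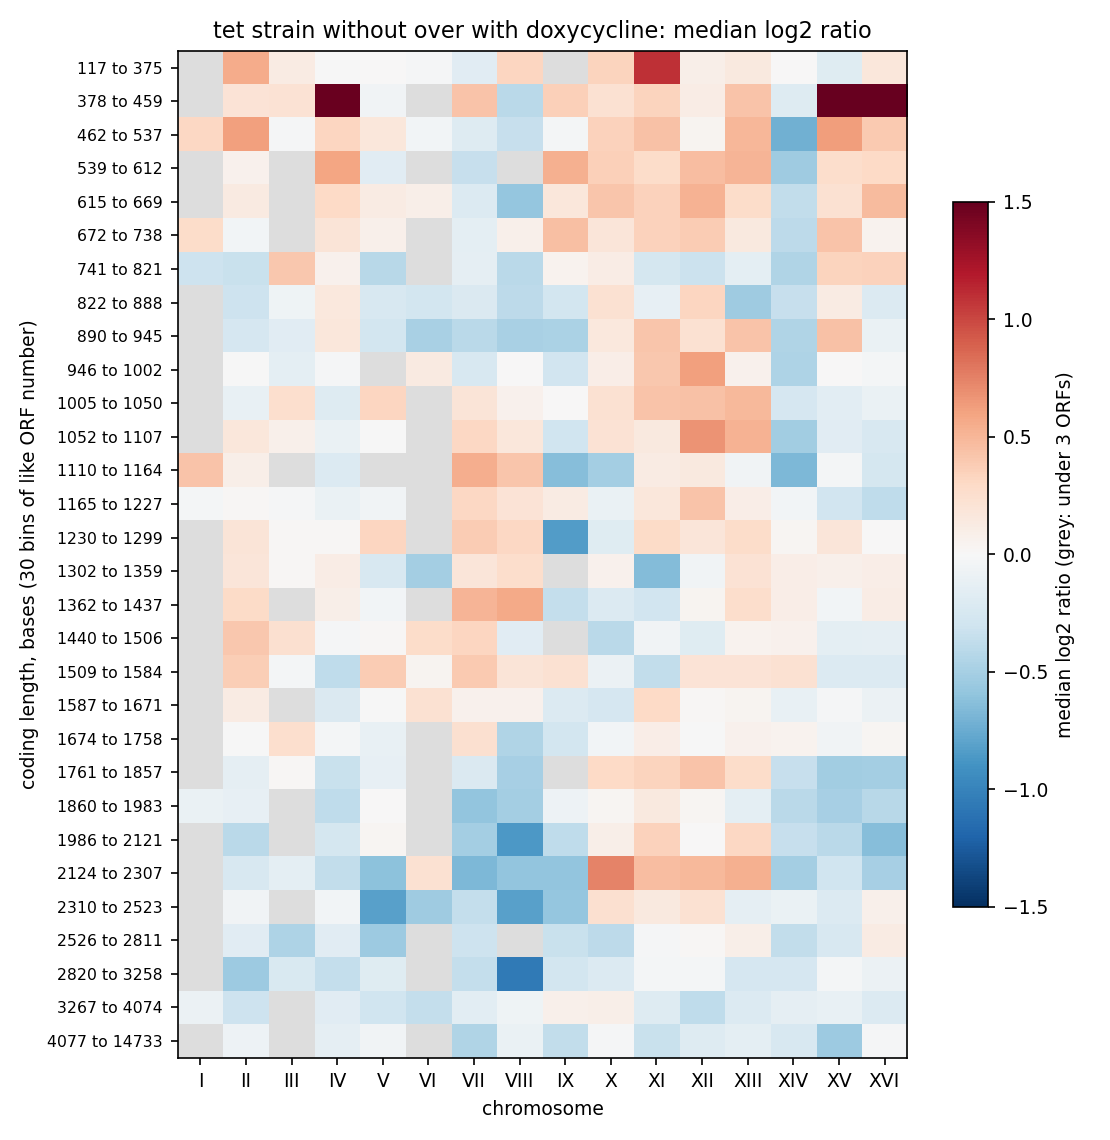
Median log2 ratio of the tet strain without over with 10 h doxycycline by coding length in bases and chromosome, with cells of under 3 ORFs in grey. Short ORFs of chromosomes IV, XV and XVI form a high block, with a median of 1.49 between 381 and 480 bases.

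Doxycycline itself was followed in the tagged strain, which shares no RNA with the tet strain comparison. Across 2207 ORFs, the ratio of the tet strain and that of the tagged strain with over without 10 h doxycycline correlated at r = 0.03, and across 2353 ORFs the correlation with 4 h doxycycline was 0.25. A gene that moves with doxycycline alone would have opposite signs in the 2 comparisons, since doxycycline is below the line in one and above it in the other. Of the 110 higher ORFs measured there, 30 had a ratio below 0 in the tagged strain and 11 were at -1 or lower, while 1041 of all 2207 ORFs were below 0. Of the 34 lower ORFs measured there, 6 had a ratio above 0 in the tagged strain and 1 was at 1 or higher. How far the arrays of one dye orientation departed from the other was also shared: that departure correlated at r = 0.57 between the 2 comparisons.

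To set the strains against each other, the ratio of the tet strain was added to the 10 h ratio of the tagged strain, so that a value above 0 means doxycycline lowered the gene more, or raised it less, in the tet strain. By limma this difference was called higher for 96 of 2156 ORFs (4.45%) and lower for 89 (4.13%). The residual of this test came from the 2 other control comparisons, and a value in 1 of them was enough. Among ORFs 2-fold higher in the tet strain, 71 of the 109 tested were called higher, and 26 of the 34 tested that were 2-fold lower were called lower. The tet ratio is part of the difference, so these counts are largely fixed by the choice of ORFs, and nothing is read from them. The same limit holds below for called differences of single genes that were named for their tet ratio. Of the higher calls, 53 of 96 lay in the short and unlisted set of chromosomes IV, XV and XVI, and of the lower calls 1 of 89. That set held 88 of the 2207 ORFs with a value in both comparisons. With the neighbour median removed from each array, the calls came to 2 higher and 1 lower among 2079 ORFs, since ORFs with no known length dropped out.

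**Figure D4:**
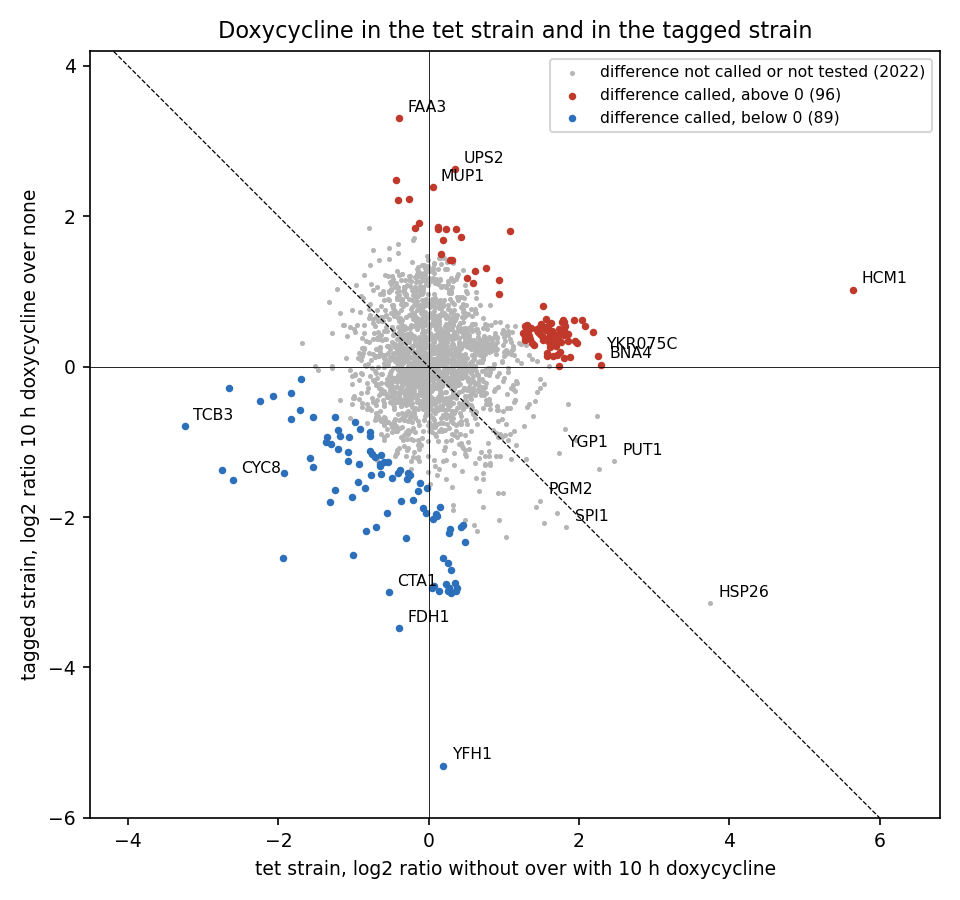
Mean log2 ratio of the tet strain without over with 10 h doxycycline (horizontal) and of the tagged strain with over without 10 h doxycycline (vertical) for the 2207 ORFs with both, coloured where the difference was called. A gene with the same response to doxycycline in both strains would lie on the dashed falling diagonal, as HSP26 nearly does at 3.74 and -3.14, while HCM1 and BNA4 lie above it and CYC8 and TCB3 below it.

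The general stress genes, which yeast turns on together under many stresses, lay mostly above 0, that is, higher in cells without doxycycline. Of 32 measured, 24 lay above 0 and 9 were 2-fold higher, none 2-fold lower, with a median of 0.50 against -0.00 over all ORFs. HSP26, a small heat-shock chaperone, had ratios of 3.43 and 4.05, the highest after HCM1. YRO2, a plasma membrane protein, had 2.11 and 1.85, and HSP30, a stress protein of the same membrane, had 1.87 and 1.85. The arrays of these genes lay within 0.7 of each other.

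Nearly all of these genes also had ratios below 0 when doxycycline was given to the tagged strain. Of 30 stress genes measured under 10 h doxycycline there, 1 lay above 0, and the median was -1.43. HSP26 had -3.08 and -3.20 in the tagged strain, and its difference between strains was 0.60 (limma, adjusted p = 0.624). SPI1, a cell wall protein, lay at 1.73 and 1.94 in the tet strain and averaged -2.13 in the tagged strain. MSC1 lay at 1.57 and 1.5 and averaged -2.08 there. The differences between strains did not pass, at -0.30 for SPI1 (adjusted p = 0.826) and -0.55 for MSC1 (adjusted p = 0.618). The difference was called for 8 of 29 stress genes, 1 higher and 7 lower, and the median difference of the list was -0.68. The one higher was YRO2, whose tagged-strain ratio averaged 0.31, with a difference of 2.29 (adjusted p = 0.00326).

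YGP1, a secreted glycoprotein of nutrient-limited cells, and HXK1, a hexokinase, stood between these. YGP1 had 1.53 and 1.93 in the tet strain and -1.15 in the tagged strain (difference 0.58, adjusted p = 0.603). HXK1 had 2.05 and 1.87 in the tet strain and -0.98 in the tagged strain (difference 0.98, adjusted p = 0.318). Without doxycycline in either strain, the tet strain over the tagged strain gave mean ratios of 2.97 for HSP26, 2.58 for HSP30, 2.22 for YRO2, 1.84 for YGP1 and 1.53 for SPI1, against 0.46 for HXK1. The ratios of the first 5 were above 1 without any doxycycline in the comparison, while MSC1 averaged 0.68 and PGM2, described below, -0.08. Over the whole stress list 20 of 31 lay above 0 there, with a median of 0.15.

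Of 9 genes of the storage carbohydrates trehalose and glycogen, 8 lay above 0 and 2 were 2-fold higher, and their median was 0.50. Both also belong to the 9 stress genes counted above. PGM2, a phosphoglucomutase, had 1.58 and 1.38, and GAC1, which directs a phosphatase to glycogen synthase, had 1.45 and 1.96. In the tagged strain the 8 genes measured had a median of -1.63 under 10 h doxycycline. PGM2 averaged -1.78 and GAC1 -1.94 there, and their differences between strains of -0.30 (adjusted p = 0.816) and -0.24 (adjusted p = 0.848) did not pass. The median difference of the list was -0.58. PGM2 averaged -0.08 in the tet strain over the tagged strain.

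Genes of NAD synthesis lay mostly above 0. Of 15 measured, 12 lay above 0 and 4 were 2-fold higher, none lower, with a median of 0.31. All 4 act in the pathway from tryptophan that is named for biosynthesis of nicotinic acid. BNA4, the kynurenine monooxygenase, had 2.30 and 2.28 (mean 2.29 ± 0.02, SD, n = 2 arrays), and BNA1, the hydroxyanthranilate dioxygenase, had 1.16 and 1.16. BNA2, the first enzyme of the route, had 1.33 and 1.56, and the kynureninase gene BNA5 had 1.28 and 1.46. The arrays lay closer together than for most genes, and all 4 neighbour medians were below 0.5.

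With doxycycline given to the tagged strain, the 10 NAD genes measured had a median of -0.04. BNA4 averaged 0.03 there, and its difference between strains was 2.32 (limma, adjusted p = 0.00285). For BNA1 and BNA2 the differences were 0.98 (adjusted p = 0.316) and 1.11 (adjusted p = 0.252), which did not pass. The tet strain over the tagged strain gave averages of 1.72 for BNA4, 1.03 for BNA1 and 0.83 for BNA5. The nicotinic acid permease gene TNA1 had 0.83 and 0.80. Sirtuin genes, whose products use NAD to remove acetyl groups from proteins, had a median of -0.14, with none of 8 at 2-fold, and SIR2 lay at -0.07 and -0.30.

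Genes for use of poor nitrogen sources held 4 of 28 at 2-fold higher and 1 lower, with a median of 0.05. PUT1, the proline oxidase, had 2.11 and 2.83, and GDH2, the NAD-dependent glutamate dehydrogenase, had 2.07 and 2.41. GAP1, the general amino acid permease, had 1.47 and 1.49, and UGA1, the transaminase for gamma-aminobutyrate, had 1.25 and 1.36. The one lower was DAL1, the allantoinase, at -1.31 and -1.04. Under 10 h doxycycline in the tagged strain PUT1 averaged -1.26, GDH2 -0.66, UGA1 -0.53 and GAP1 -0.28. No difference between strains passed for these 4 genes, with adjusted p-values of 0.183 for PUT1, 0.0555 for GDH2, 0.441 for UGA1 and 0.242 for GAP1.

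Of 14 genes for carbon sources other than glucose, 11 lay above 0 and 2 were 2-fold higher, and their median was 0.41. ADR1, the activator of genes repressed by glucose, had 1.63 and 1.78, and it differed from the tagged strain by 1.86 (adjusted p = 0.0187). HXT7, a high-affinity hexose transporter with a near-identical copy that can share its signal, had 1.33 and 1.32 and differed by 1.76 (adjusted p = 0.0427). Of the 11 tested, 2 others were called lower through the tagged strain, the aldehyde dehydrogenase genes ALD3 (difference -2.72, adjusted p = 7.63e-04) and ALD4 (difference -1.97, adjusted p = 0.0151), and the median difference was 0.04. The 30 glycolysis genes held 1 at 2-fold higher, their median was -0.18, and array 2 put them at -0.43 while array 1 put them at 0.06.

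Respiratory chain genes had 27 of 40 above 0, with a median of 0.27, and none was 2-fold changed on both arrays. QCR10, a subunit of the cytochrome bc complex, had 1.23 and 0.99, and ATP5, a subunit of the ATP synthase, had 1.33 and 0.77. In the tagged strain with over without 10 h doxycycline 28 of 35 were also above 0, with a median of 0.22. In the tet strain over the tagged strain 32 of 34 lay above 0, with a median of 0.58, the highest of the 41 lists there. The respiratory chain genes are short, with a median coding length of 454.5 bases against 1299 over all ORFs. With the neighbour median removed, their median in the tet strain without over with doxycycline was 0.20, with 29 of 40 above 0. The list medians over the tagged strain were not adjusted for length. Genes of the citric acid cycle had a median of 0.11, and of 22 measured KGD1 was 2-fold lower.

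**Figure D5:**
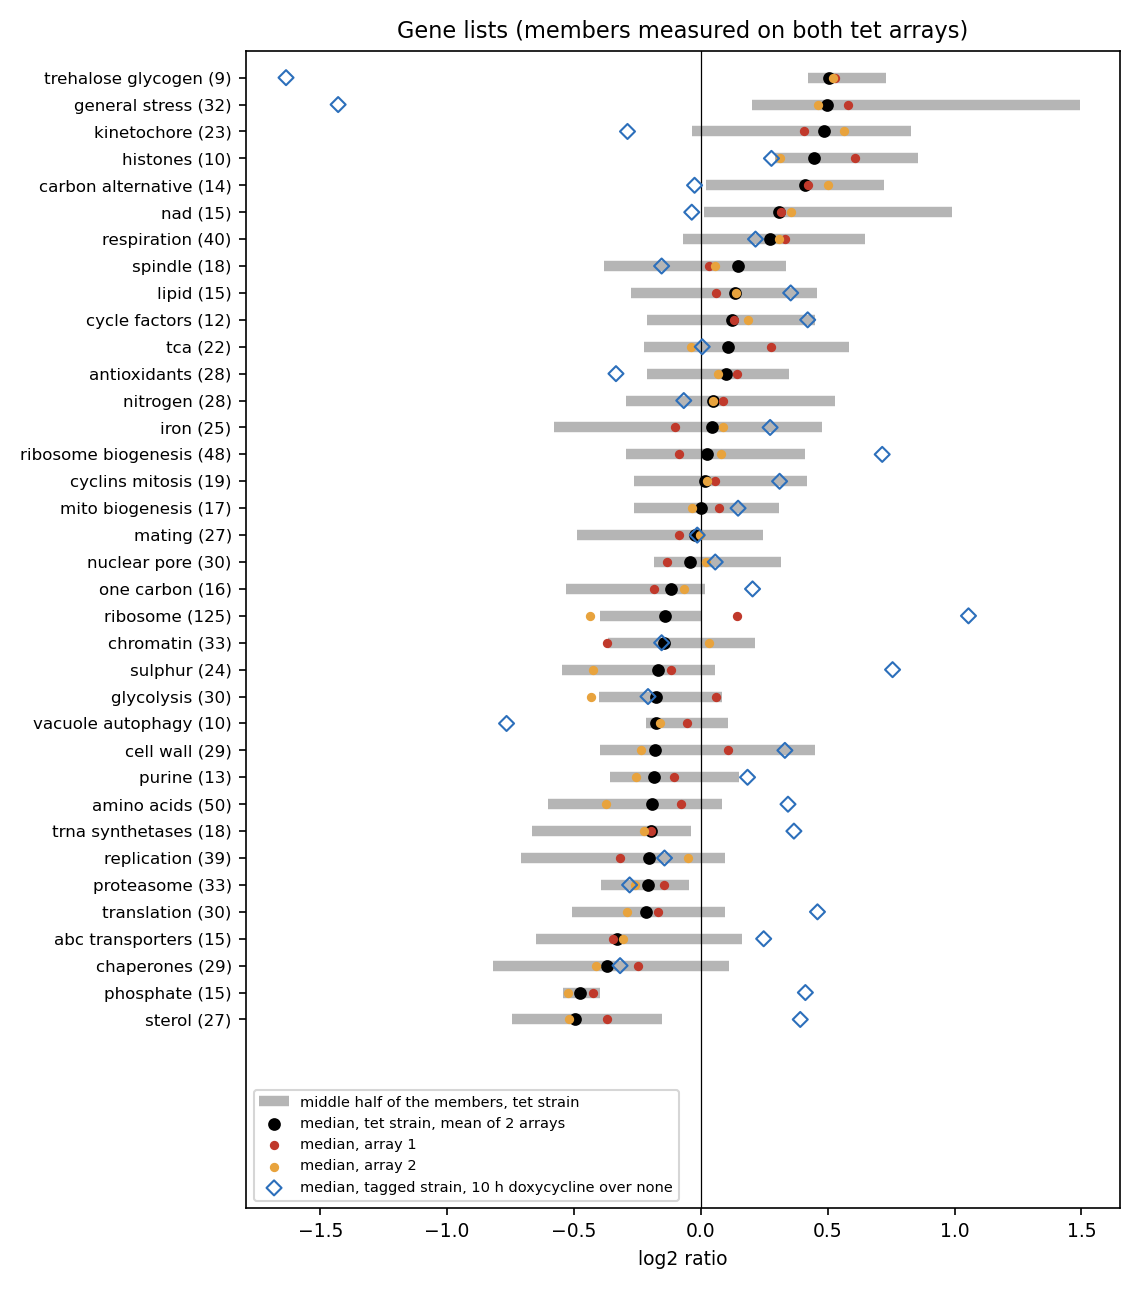
Median log2 ratio of the larger gene lists in the tet strain without over with 10 h doxycycline (black), on array 1 (red) and array 2 (orange) alone, and in the tagged strain with over without 10 h doxycycline (open diamonds). Grey bars span the quartiles of the members, and the number measured is in brackets. The median over all 4307 ORFs is -0.00, the stress and kinetochore lists have medians of 0.50 and 0.48, and the sterol list has -0.50.

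Kinetochore genes, which attach chromosomes to the spindle and are a known target class of Hcm1, had 17 of 23 above 0, with a median of 0.48. One of them, NNF1, was 2-fold higher, with 1.22 and 1.74. NSL1, which belongs to the same complex as NNF1, had 0.85 and 1.48, and DAM1, of the ring that couples kinetochores to microtubules, had 0.79 and 1.32. NDC80, of the outer kinetochore, had 0.91 and 1.05 and averaged -0.94 in the tagged strain with over without 10 h doxycycline, with a difference of 0.04 (adjusted p = 0.977). All 4 lay above 0 on both arrays. With the neighbour median removed the list median was 0.41.

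The other side of that comparison was less complete. Only 7 of the 23 kinetochore genes had a value on both arrays in the tagged strain under 10 h doxycycline, with a median of -0.29, and the difference between strains was called for 0 of them by limma. In the tet strain over the tagged strain the median of 19 kinetochore genes was 0.09, with NNF1 averaging 0.92, DAM1 0.64 and NDC80 0.61.

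Spindle genes held 1 gene at 2-fold in each direction among 18, with a median of 0.15, while the median difference from the tagged strain over the 5 measured there was -0.92. SPC98, a subunit of the complex that nucleates microtubules, had 1.24 and 1.07, against a neighbour median of -0.55. TUB2, the beta-tubulin gene, had -1.19 and -1.22 and differed from the tagged strain by -2.04 (adjusted p = 0.0121). Among cyclins and mitotic regulators, CLB1 had 1.64 and 1.99 and CLB3 0.58 and 0.98, while CLB2 had -1.02 and -0.94. CLB1 and CLB2 both encode mitotic cyclins, and they lay on opposite sides of 0 on both arrays. The list of 19 had a median of 0.02, with CLB1 as its single 2-fold gene.

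Of the cell cycle transcription regulators, HCM1 alone among 12 was 2-fold changed, and the list median was 0.12. NDD1, a coactivator of mitotic genes, had 0.51 and 0.79, and MBP1, the DNA-binding subunit of a factor for genes of G1 and S phase, had 0.52 and 1.09. FKH2, a forkhead factor, had -0.13 and 0.19, and FHL1, a forkhead-like factor of ribosomal protein genes, had 0.12 and 0.64. FKH1 had no value on both arrays. FKH2 changed sign between the arrays.

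Genes of DNA replication leaned the other way, with 15 of 39 above 0 and a median of -0.21. MCM3, a subunit of the replicative helicase, had -1.45 and -2.25, against a neighbour median of -0.35. RFC3, of the clamp loader, had -1.01 and -1.10. No member was 2-fold higher. MCM3 averaged -1.43 in the deletion strain over the wild type, so it was low on that side as well.

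Histone genes had 9 of 10 above 0, with a median of 0.44, which became 0.19 with the neighbour median removed. HTZ1, which encodes the variant of histone H2A, had 1.84 and 1.47, against a neighbour median of 1.48. HTA1, a gene of histone H2A itself, had 1.26 and 0.84 and HTB1, of histone H2B, had 1.14 and 0.67, with neighbour medians of 1.5 and 1.48. All 3 belong to the short ORFs of chromosomes IV, XV and XVI, where a ratio of this size is the common one.

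Other genes in that set had the same pattern. INO4, an activator of phospholipid genes, had 1.82 and 1.45, and PRM3, needed for nuclear fusion in mating, had 1.61 and 1.37, against neighbour medians of 1.47 and 1.5. GRX5, a mitochondrial glutaredoxin for iron-sulphur clusters, had 1.63 and 1.06, and after its neighbour median was removed its value was -0.14. CSM4, which moves chromosomes in meiosis, had 2.06 and 1.81, above a neighbour median of 0.82. Lists that hold these genes kept few others at 2-fold: phospholipid genes held 1 of 15, INO4, with a median of 0.13, and antioxidant genes 1 of 28, GRX5, with a median of 0.10 that became -0.13 with the neighbour median removed. Mating genes held PRM3 higher and PRM5, at -1.63 and -2.04, lower among 27, with a median of -0.02.

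Iron genes held ISU2, a scaffold for iron-sulphur clusters, at 1.71 and 1.21, and FRE2, an iron reductase, at 1.5 and 1.09. FRE4, another member of the reductase family, had -1.45 and -1.85. The neighbour median was 0.82 for ISU2 and 0.49 for FRE2. The median of the 25 genes was 0.04, and it was -0.03 with the neighbour median removed.

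Cell wall genes held 3 of 29 at 2-fold higher and none lower, although the list median was -0.18, and 0.11 on array 1. PRY1, a secreted sterol-binding protein, had 2.44 and 1.95, and it averaged 0.46 in the tagged strain, with a difference of 2.65 (adjusted p = 6.97e-04). WSC4, of a family of cell wall stress sensors, had 2.02 and 2.06, and GSC2, a glucan synthase subunit, had 1.30 and 1.54. WSC4 and PRY1 averaged 2.29 and 2.02 in the tet strain over the tagged strain. The 3 genes lay above their neighbour medians, which were between -0.28 and 0.28.

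YKR075C had 2.26 and 2.24, with 0.15 in the tagged strain with over without 10 h doxycycline and a difference of 2.40 (adjusted p = 0.00212). In the tet strain over the tagged strain, however, it had -1.06 and -0.64. Its ratio was thus above 0 against doxycycline-treated cells of the same strain and below 0 against the tagged strain.

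The 7 lowest genes were long, with coding lengths of 2928 to 4968 bases. RPN1, a subunit of the proteasome's regulatory particle, had -3.33 and -3.73, and SPT16, of the histone chaperone FACT, had -3.17 and -4.22. BPT1, an ABC transporter of the vacuole, had -3.09 and -3.79, and MIS1, a mitochondrial enzyme of one-carbon metabolism, had -2.98 and -3.79. NUP188 and NSP1, of the nuclear pore, had -2.69 and -2.86, and -1.98 and -2.16. Array 2 lay lower than array 1 for each of these 6 genes. RPN1, SPT16, MIS1, KGD1 and CYC8 belong to the set of 2880 to 3249 bases on chromosomes II to IX. Their neighbour medians were -0.33, -0.25, -0.28, -0.27 and -0.25.

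These genes were not low in this comparison alone. In the deletion strain over the wild type RPN1 averaged -2.53, KGD1 -2.60, NUP188 -2.07 and MIS1 -1.77, and in the tet strain over the tagged strain -1.40, -0.45, -0.26 and -1.12. HCM1 itself had opposite signs in these comparisons. KGD1 lies on chromosome IX, whose 165 ORFs had a median of -0.94 in the deletion strain over the wild type, while RPN1, NUP188 and MIS1 lie on chromosomes with medians between -0.00 and 0.08 there. Of the 93 ORFs 2-fold lower in the tet strain, 86 were below 0 in the deletion strain over the wild type, against 2084 of all 4271 ORFs measured in both. Without chromosome IX these counts were 78 of 85 and 1921 of 4105. Of the 93, 22 were not in the gene table, against 167 of all 4307 ORFs. Among the 93 were 23 of the 414 longest ORFs, out of 4140 with a known length. The median coding length was 639 bases for the higher ORFs and 1902 for the lower ones, against 1299 over all.

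Where the tagged strain was measured at 10 h, the difference was called for the lowest genes. They were picked by their tet ratio, which is part of the difference. These calls were therefore largely fixed by that choice, and nothing is read from them. KGD1, a subunit of ketoglutarate dehydrogenase, had -2.58 and -2.92 in the tet strain and -1.32 and -1.42 in the tagged strain, a difference of -4.12 (adjusted p = 1.31e-07). CYC8, a corepressor of many genes, had -2.27 and -2.94 in the tet strain and -1.80 and -1.20 in the tagged strain, a difference of -4.11 (adjusted p = 9.05e-06). XRN1, the cytoplasmic exonuclease of mRNA decay, had -2.05 and -2.45 in the tet strain and 0.77 and -1.68 in the tagged strain. KGD1 and CYC8 were below 0 in both comparisons, although untreated cells stand on top of the ratio in the tet strain and treated cells in the tagged strain. With over without 4 h doxycycline, the tagged strain averaged -1.93 for RPN1, -2.42 for BPT1, -1.92 for TCB3, -2.22 for CYC8 and -0.51 for XRN1. None of the 20 lowest ORFs with a value on both 4 h arrays was above 0 there.

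Chaperone genes lay mostly below 0. Of 29 measured, 8 were above 0, HSP26 and SSA4 were 2-fold higher and 4 genes were 2-fold lower, and the list median was -0.37. SSA4, a stress-induced Hsp70, had 2.15 and 2.46 and averaged 1.87 in the tet strain over the tagged strain. STI1, a cochaperone of Hsp90, had -1.28 and -1.20 and differed from the tagged strain by -2.88 (adjusted p = 1.81e-04). KAR2, the Hsp70 of the endoplasmic reticulum, had -1.01 and -1.04, and SIS1, an Hsp40, had -1.04 and -1.0, and neither difference passed (adjusted p = 0.200 and 0.160). HCH1, an activator of Hsp90, had -1.22 and -1.03.

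Sterol synthesis genes had 5 of 27 above 0 and a median of -0.50, and none was 2-fold lower on both arrays. MVD1, of the mevalonate pathway, had -0.90 and -1.20, and ERG25, a sterol oxidase, had -0.88 and -1.15. Under 10 h doxycycline in the tagged strain 18 of 22 were above 0, with a median of 0.39. The median difference between strains was -0.19, with 1 of 21 called, ERG5, a sterol desaturase gene, which was higher at 1.66 (adjusted p = 0.0426). Phosphate genes had 1 of 15 above 0, with a median of -0.48. PHO12, an acid phosphatase, had -1.04 and -1.24, PHO11, a near-identical copy that can share its signal, had -0.86 and -1.14, and PHO5 had -0.39 and -0.52. PHO12 averaged -1.79, PHO11 -1.73 and PHO5 -0.94 in the tet strain over the tagged strain.

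Genes of methionine and sulphur metabolism had 7 of 24 above 0 and a median of -0.17. MET3, the first enzyme of sulphate assimilation, had -1.43 and -1.26, and MET6, the methionine synthase, had -1.73 and -1.65. In the tagged strain the 15 genes measured had a median of 0.76 under 10 h doxycycline, and their median difference was 0.62, above 0. One-carbon genes had 4 of 16 above 0 and a median of -0.12, with MIS1 and MET12, a methylenetetrahydrofolate reductase with -1.31 and -1.05, 2-fold lower. Genes of amino acid synthesis had a median of -0.19, with 1 of 50 at 2-fold, LYS2 at -1.14 and -1.22, and purine genes had a median of -0.18, with none of 13.

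Ribosomal protein genes had 32 of 125 above 0, with a median of -0.14, but the arrays disagreed on the sign, at 0.14 on array 1 and -0.44 on array 2. The list was drawn by name pattern and also took in RPP1, a subunit of ribonuclease P, which with RPS14A was its only 2-fold lower member. RPS14A had -1.46 and -2.01, and since its near-identical copy can share a probe's signal its value is uncertain. In the tagged strain with over without 10 h doxycycline all 117 genes measured were above 0, with a median of 1.05. The median difference between strains was 0.88, and 5 of 116 were called higher. Ribosome assembly genes had a median of 0.03, tRNA synthetase genes -0.20, with 2 of 18 above 0, and other translation genes -0.22.

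The remaining lists had few members at 2-fold. The list of proteasome subunit genes with RPN4 and UBI4 had 6 of 33 above 0 and a median of -0.21. UBI4, a polyubiquitin gene and no subunit, was 2-fold higher at 1.16 and 1.0, and 2 genes were lower, RPN1 and the deubiquitinase gene RPN11, with -1.19 and -1.03. Nuclear pore genes had a median of -0.04, with 2 of 30 lower, and chromatin genes -0.15, with 3 of 33 lower. ABC transporter genes and their regulators had a median of -0.33, with 3 of 15 lower, among them PDR1, the activator of drug resistance genes, with -1.03 and -1.13. Mitochondrial biogenesis genes had a median of -0.00, with 2 of 17 lower, the import genes TIM44 and TIM23, and 1 higher, ABF2, which packs mitochondrial DNA. Of 10 vacuole and autophagy genes 1 was higher, with a list median of -0.18, and of 5 membrane contact genes TCB3 was lower, with a list median of 0.12. The 4 MATa genes measured had a median of -0.44 and the 3 sporulation genes 0.22, and none of them was 2-fold changed.

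Some genes differed between the strains through the tagged strain alone. YFH1, the frataxin of iron-sulphur cluster assembly, had 0.22 and 0.17 in the tet strain and -5.43 and -5.19 in the tagged strain with over without 10 h doxycycline, a difference of -5.11. FDH1, a formate dehydrogenase, had -0.07 and -0.72 in the tet strain and -3.31 and -3.65 in the tagged strain. CTA1, the catalase of peroxisomes, had -0.24 and -0.83 in the tet strain and -2.71 and -3.29 in the tagged strain. These 3 genes were within 1 of 0 in the tet strain, where HCM1 changed 50.2-fold.

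In the other direction stood UPS2, which governs a mitochondrial phospholipid, with 0.02 and 0.69 in the tet strain and 2.42 and 2.84 in the tagged strain, and MUP1, the methionine permease, with 0.17 and -0.06 in the tet strain and 2.51 and 2.27 in the tagged strain. FAA3 was also called, but its tagged-strain arrays disagreed, at 6.14 and 0.47. Of the 96 differences called higher, 25 were of ORFs not 2-fold higher in the tet strain, and of the 89 called lower, 63 were of ORFs not 2-fold lower in it.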

How the data were processed

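The deposited table holds log2 ratios of 6174 ORFs on 12 arrays with 2 channels each; per the labels, dyes were swapped between the arrays of a comparison, and the deposited values of the 2 tet strain arrays run in the same direction, while the 2 columns of the tagged strain over the wild type mirror each other and 1 of them was used. How the authors corrected background, normalized and filtered spots is not stated in the labels or the file. Each array was centred on its median (deposited medians -0.02 and -0.05 for the tet strain), and the 2 arrays were averaged; ORFs with both values were kept.

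Names, chromosomes and coding lengths came from RefSeq's gene table of the R64 assembly, which lists 4140 of the 4307 ORFs; 167 keep the file's name. Of the lengths, 96.9% are multiples of 3. The Exp numbers shared by all groups mark dye orientation, not shared samples, so the block on them stands as an alternative. limma 3.58.1 (R 4.3.3) fitted the 6 comparison means with the 3 control comparisons as the residual and Benjamini-Hochberg adjustment at 0.05; ORFs needed at least 2 control values. Scripts used Python 3.11.15, pandas 2.3.3, numpy 2.4.6 and statsmodels 0.14.6, and the fit was tested on simulated data. The residuals are distances of control comparisons from 0, so responses to doxycycline in the tagged strain count as scatter. Nothing says that samples came from separate cultures, so the p-values measure no spread between replicate cultures.

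The named genes were HCM1, ORFs that passed the test, the 20 highest and 20 lowest by the smaller array value, the 10 highest and 10 lowest differences, in each of 41 gene lists the members at 2-fold and the 4 furthest from 0, the 5 ORFs whose arrays lay furthest apart, and forkhead genes; a few further list members and mating-type genes were named after their values were seen. Members and lists were chosen with earlier results of these data known. Alternatives were the deposited centring, a common spread, a coding length trend, other residuals, the replicate block, leaving out each array and, added after seeing the data, the neighbour median, 1 control value, and a count without the short and unlisted ORFs of chromosomes IV, XV and XVI.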

Additional observations from a re-analysis of the deposited data

Results flagged for a closer look

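The responses to 10 h doxycycline differed between the tet strain and the tagged strain by limma's test of the difference for 96 ORFs higher and 89 lower. HCM1 had the highest difference, 6.67, followed by UPS2 at 2.98, FAA3 at 2.92, URA1 at 2.89, YDR095C at 2.65, PRY1 at 2.65, YDR133C at 2.63, CSM4 at 2.55, MUP1 at 2.44 and BTT1 at 2.41. The lowest were YFH1 at -5.11, YLR162W at -4.47, KGD1 at -4.12, CYC8 at -4.11, TCB3 at -4.04, FDH1 at -3.88, CTA1 at -3.53, GYP7 at -3.51, YAL004W at -3.34 and GUT1 at -3.11.

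CSM4 and BTT1 are short ORFs of chromosomes XVI and IV, and YDR095C and YDR133C are not in the gene table. The 2 arrays of FAA3 in the tagged strain were far apart, at 6.14 and 0.47. YLR162W had -1.59 and -2.28 in the tet strain without over with doxycycline and -1.99 and -3.09 in the tagged strain with over without it. GYP7 had -1.17 and -0.83 in the tet strain and -2.79 and -2.22 in the tagged strain. URA1, an enzyme of pyrimidine synthesis, was above 0 in both, at 1.20 and 0.96 in the tet strain and 1.76 and 1.85 in the tagged strain. With the neighbour median removed from each array, 3 differences were called, HCM1 among them (adjusted p = 0.0433).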

How the results depend on the processing

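HCM1 kept its direction in every setting that could test it. By limma its adjusted p was 0.0854 with values as deposited (ratio 5.62), 0.122 with both columns of the tagged strain averaged (5.65), 0.0620 with robust moderation (5.65), 0.111 with the length trend removed (5.71), 0.197 with the neighbour median removed (5.58) and 0.0767 without array 1 (5.51), against 0.0368 without array 2 (5.79).

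Counts by limma's test of the tet strain were 1 here, 1 with a common spread and 1 with 1 control value enough. They were 0 as deposited, with both tagged columns averaged, with the tagged strain over wild type left out, with robust moderation, with the length trend removed, with the neighbour median removed and over ORFs on all 12 arrays, with 131 to 407 ORFs at an unadjusted p under 0.05. Leaving out an array gave 0 to 1. They were 95 without the 10 h comparison in the residual, 185 with it added to the value, 237 with arrays as units and no block, and 320 with the replicate block. That block treats dye orientation as the pairing, and arrays as units count 1 RNA pair as 2.

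The difference between strains was called for 185 ORFs, 21 with a common spread (5 higher, 16 lower), 97 without the tagged strain over wild type, 44 with the length trend removed (12 and 32), 3 with the neighbour median removed (2 and 1), 489 with arrays as units, 775 with the replicate block and 162 to 250 with an array left out. The 2-fold count of 231 was 714 at 1.5-fold (359 higher, 355 lower), 49 at 3-fold (25 and 24), 128 with the neighbour median removed (57 and 71), 161 without the short and unlisted set (75 and 86), and 361 to 524 with an array left out (214 to 296 and 147 to 228). Of the 138 higher ORFs 45, and of the 93 lower ORFs 47, were also 2-fold with the neighbour median removed. Of these same sets 22 higher and 22 lower ORFs were not in the gene table, against 167 of all 4307 ORFs. They have no known length, so they could not be counted once the neighbour median was removed. Tests with the length trend or the neighbour median removed also left out ORFs with no known length.

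Of the named genes, 15 changed sign when set against the tagged strain and 9 with the neighbour median removed. Those among them that were 2-fold on both arrays were SPI1 (-0.30), MSC1 (-0.55), PGM2 (-0.30) and GAC1 (-0.24) against the tagged strain. The differences of these 4 genes did not pass. With the neighbour median removed the 2-fold gene was GRX5 (-0.14). Of 41 list medians, 2 changed sign as deposited, 3 with the length trend removed, 6 with the neighbour median removed, 4 and 6 without array 1 and array 2, and 0 with a common spread; of 39 with a difference, 17 did. Causes were not tested.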

Other observations

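The 2 arrays of the tet strain lay furthest apart for RTS2, at 2.10 and -3.01, and in the tagged strain with over without 10 h doxycycline RTS2 had 3.65 and -3.04. SWI4, a subunit of a transcription factor of G1 genes, had 1.38 and -1.81 in the tet strain, and EMG1, a ribosome assembly factor, had 1.97 and -0.52. YLR444C had 2.29 and -0.76, and YML053C had -0.15 and 1.82. No ratio is drawn from these ORFs.

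Over chromosomes, the median ratio of the tet strain without over with doxycycline lay between -0.24 on chromosome XIV and 0.17 on chromosome XIII.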
